A study of Sus scrofa with 15 samples.

Results

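The genes described here are 10 genes of the cell division cycle, namely the mitotic genes CCNB1, BIRC5, CDK1, TOP2A, CDC20 and AURKA, the replication gene PCNA, and the G1 control genes CCND2, CDK4 and CDKN1A. They were chosen by name with the group differences on these arrays already known, those of CCNB1 and BIRC5 among them, so their levels are a description without a test. Of the 10 genes, 8 could be matched to a probe through a RefSeq accession, among the 3020 genes matched in all. PCNA and CDKN1A matched no RefSeq probe and are not analysed here. The 8 measured genes had 11 probes, and where a gene had more than 1 probe, the brightest over the 15 arrays was used.

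Kidney RNA was taken from 15 female Yorkshire pigs that were 20 weeks old, with 5 pigs and 5 arrays in each of 3 groups. All pigs had lost the left kidney beforehand, and all had 90 minutes of warm ischemia of the remaining right kidney, so that no group was free of ischemia. The control group had no ischemic preconditioning. The rIPCe group had remote ischemic preconditioning, in which the right external iliac artery was clamped in 2 cycles of 10 minutes, just before renal ischemia (early window), and the rIPCl group had it 24 hours before renal ischemia (late window). Kidneys were taken at 72 hours. The arrays were Agilent porcine arrays of a single colour, and all levels below are log2 signals after quantile normalization, in which a difference of 1 is a 2-fold change. Between 62.2% and 74.2% of spots were well above background on an array, with 62.2% to 69.5% on control arrays, 67.4% to 73.9% on rIPCe arrays and 71.8% to 74.2% on rIPCl arrays, and no spot was saturated. The arrays lay on 4 slides that largely coincide with the groups, since slide 1 held control arrays only and slide 4 held rIPCl arrays only. Kidney identity was checked on the proximal tubule gene SLC34A1, a phosphate transporter, with means of 14.66 ± 0.34 (control, SD over 5 arrays), 14.68 ± 0.42 (rIPCe) and 14.52 ± 0.41 (rIPCl). All 5 measured proximal tubule markers had a lower mean in rIPCl than in the control group, with log2 differences from -0.14 for SLC34A1 to -1.51 for the organic anion transporter SLC22A8. The rIPCl arrays of SLC22A8 all lay below all control arrays, a separation found in 6.75% of all probes. Limma and the methods' t-test called 0 of the 5, with 2 at an unadjusted p under 0.05 (26.8% of all probes).

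A cell that divides copies its DNA and then segregates it in mitosis. Passage through G1 is driven by D-type cyclins with CDK4, and entry into mitosis by cyclin B1 with CDK1. TOP2A untangles the copied chromosomes, AURKA builds the spindle poles, BIRC5 (survivin) sits at centromeres within the chromosomal passenger complex, and CDC20 activates the ubiquitin ligase that destroys cyclin B at the end of mitosis. Transcripts of the mitotic genes accumulate mainly in G2 and M phase. The adult kidney has few dividing cells, and surviving tubule cells are known to re-enter the cycle after ischemic injury.

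The 6 mitotic genes had their lowest mean in the control group, an intermediate mean in rIPCe and their highest mean in rIPCl, whereas CCND2 and CDK4 had nearly the same mean in all 3 groups. In rIPCl, the mitotic genes were between 2.37-fold (CDC20) and 7.29-fold (CCNB1) above the control group. The order had wide overlaps: the rIPCe arrays overlapped both the control and the rIPCl arrays for every one of the 8 genes, and CCNB1 was the only gene whose rIPCl and control arrays did not overlap. Over all probes, 2.71% had every rIPCl array above every control array, 0.569% every rIPCe array above every control array and 0.374% every rIPCl array above every rIPCe array. In whole kidney tissue, more dividing cells and more transcript per cell cannot be told apart.

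**Figure D1:**
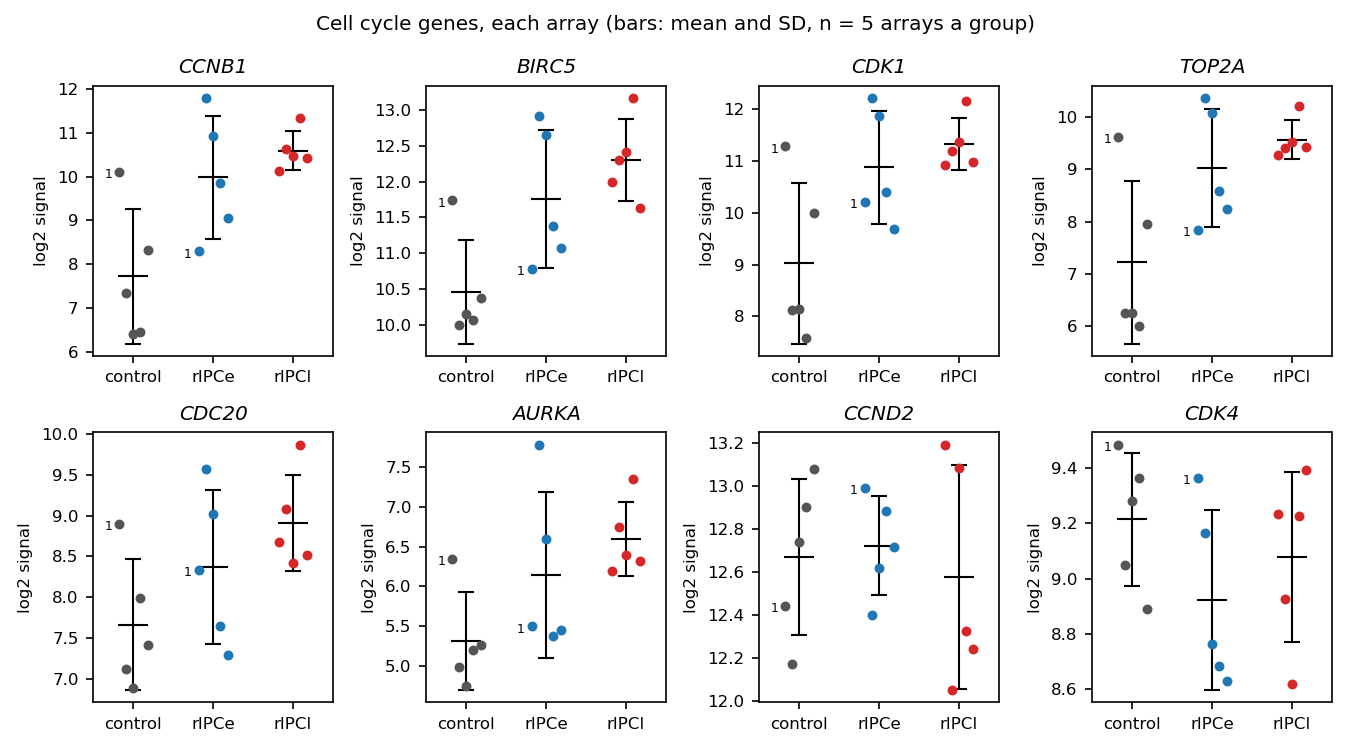
The log2 signal of the 8 measured genes is plotted for each array by group, with the mean and SD over 5 arrays as black bars and replicate 1 of the control and rIPCe groups marked 1. Each panel has its own vertical scale. For the 6 mitotic genes the rIPCl arrays lie high, with a smaller SD than either other group, and control 1 is the highest control array.

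CCNB1 encodes cyclin B1, the regulatory subunit of the kinase that starts mitosis. Its probe (A_72_P260897) read 10.10, 7.35, 6.41, 6.46 and 8.32 on control arrays 1 to 5. On rIPCe arrays 1 to 5 it read 8.29, 11.79, 10.93, 9.85 and 9.06, and on rIPCl arrays 1 to 5 it read 10.12, 10.62, 10.47, 11.33 and 10.43. All 5 rIPCl arrays lay above all control arrays, though rIPCl 1 exceeded control 1 only narrowly, and 2 of 5 rIPCe arrays did. The group means were 7.73 ± 1.54 (control, SD over 5 arrays), 9.98 ± 1.40 (rIPCe) and 10.59 ± 0.45 (rIPCl). Against the control mean, CCNB1 was 2.25 higher in rIPCe and 2.87 higher in rIPCl (limma standard error 0.73 for both), or 4.77-fold and 7.29-fold.

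CDK1, the catalytic partner of cyclin B1, followed the same arrays. It read 11.28, 8.13, 8.14, 7.59 and 10.00 on control arrays 1 to 5, then 10.21, 12.21, 11.86, 10.39 and 9.70 in rIPCe and 10.93, 11.19, 11.37, 12.15 and 10.99 in rIPCl. Control 1 reached the level of the rIPCl arrays, and control 5 that of the lower rIPCe arrays. The group means were 9.03 ± 1.55 (control, SD over 5 arrays), 10.87 ± 1.10 (rIPCe) and 11.33 ± 0.49 (rIPCl), which put CDK1 1.84 and 2.30 above the control mean (limma standard error 0.67). Its other probe gave 1.77 and 2.25.

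BIRC5, a member of the inhibitor of apoptosis family that also guides chromosome segregation, read 11.74, 10.00, 10.15, 10.06 and 10.37 on control arrays 1 to 5. The rIPCe arrays read 10.78, 12.93, 12.65, 11.38 and 11.07, and the rIPCl arrays 11.99, 12.31, 12.41, 13.17 and 11.63. Of the 5 rIPCl arrays, 4 exceeded all control arrays, and rIPCl 5 lay just under control 1. From a control mean of 10.46 ± 0.73 (SD over 5 arrays), BIRC5 was 1.30 higher in rIPCe (11.76 ± 0.97) and 1.84 higher in rIPCl (12.30 ± 0.57, limma standard error 0.46). A second probe gave 1.25 and 1.86.

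TOP2A, which encodes the DNA topoisomerase of dividing cells, read 9.63, 6.26, 6.25, 6.02 and 7.96 in the control group. It read 7.84, 10.36, 10.07, 8.59 and 8.24 in rIPCe and 9.26, 9.40, 9.53, 10.22 and 9.42 in rIPCl. Control arrays 2 to 4 were close together and low, control 1 lay within the rIPCl range, and the rIPCl arrays had the smallest spread of the 6 mitotic genes (SD 0.37 over 5 arrays). TOP2A exceeded its control mean of 7.22 ± 1.55 by 1.80 in rIPCe and by 2.34 in rIPCl (limma standard error 0.67).

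CDC20 and AURKA differed less. CDC20 read 8.90, 7.13, 6.89, 7.99 and 7.42 in the control group, 8.34, 9.57, 9.02, 7.65 and 7.29 in rIPCe and 8.67, 9.08, 8.42, 9.87 and 8.52 in rIPCl, so that 2 rIPCl arrays lay above every control array. CDC20 exceeded its control mean of 7.67 ± 0.80 by 0.71 in rIPCe and by 1.25 in rIPCl (limma standard error 0.47). AURKA read 6.35, 4.99, 4.74, 5.20 and 5.27 in the control group, 5.50, 7.78, 6.60, 5.37 and 5.45 in rIPCe and 6.20, 6.74, 6.39, 7.35 and 6.32 in rIPCl, with 3 rIPCl arrays above every control array. AURKA exceeded its control mean of 5.31 ± 0.62 by 0.83 in rIPCe and by 1.29 in rIPCl (limma standard error 0.45). Its second probe gave 0.92 and 1.32.

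The G1 genes showed no such pattern. CCND2 encodes cyclin D2, which activates CDK4 and its relative CDK6 in response to growth signals. It read 12.44, 12.17, 12.74, 12.90 and 13.08 on control arrays 1 to 5 (mean 12.67 ± 0.36, SD over 5 arrays), 12.99, 12.40, 12.62, 12.88 and 12.71 on the rIPCe arrays (12.72 ± 0.23) and 13.19, 12.05, 13.08, 12.32 and 12.24 on the rIPCl arrays (12.58 ± 0.52). The 3 ranges overlapped, and control 1, high for the mitotic genes, was not high for CCND2. CDK4, the kinase that phosphorylates the retinoblastoma protein, read 9.48, 9.05, 9.28, 9.36 and 8.89 on the control arrays (9.21 ± 0.24), 9.36, 9.17, 8.77, 8.69 and 8.63 on the rIPCe arrays (8.92 ± 0.32) and 9.23, 8.93, 8.62, 9.23 and 9.39 on the rIPCl arrays (9.08 ± 0.31). The differences from the control group were 0.05 and -0.09 for CCND2 in rIPCe and rIPCl (limma standard error 0.24), and -0.29 and -0.13 for CDK4 (limma standard error 0.18). These small differences had no stable sign, since with slide as a block CDK4 differed by 0.21 in rIPCe and 0.78 in rIPCl and CCND2 by -0.41 in rIPCe.

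**Figure D2:**
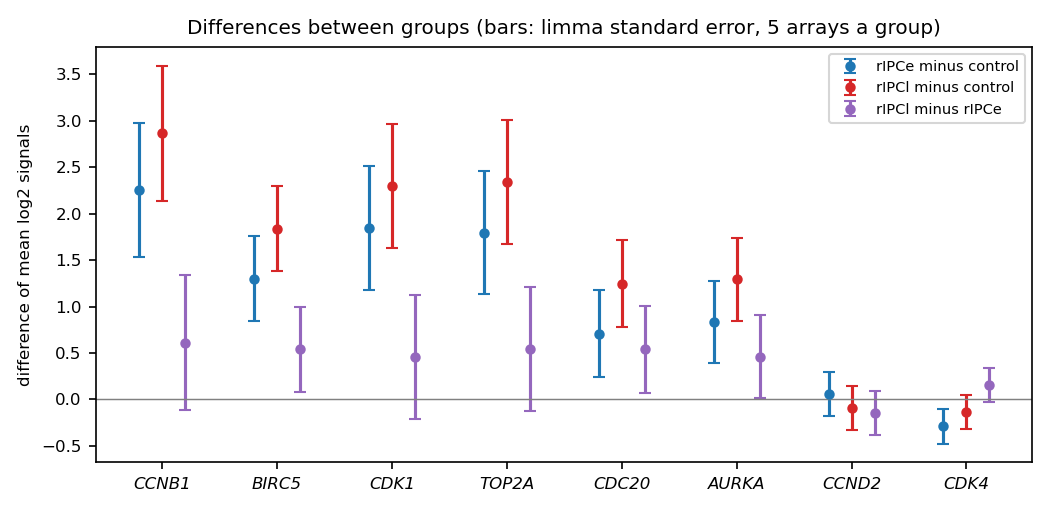
Differences of mean log2 signals are plotted for the 8 genes in the 3 comparisons, with limma standard errors as bars (5 arrays a group). The 6 mitotic genes lie above 0 against the control group, from 0.71 to 2.87, while CCND2 and CDK4 lie between -0.29 and 0.16 in all comparisons.

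Between the preconditioned groups, the mitotic genes were 0.45 (CDK1) to 0.61 (CCNB1) higher in rIPCl than in rIPCe, with standard errors of 0.45 to 0.73, so each difference was smaller than its error or little above it, as for BIRC5 and CDC20 (0.54 for both, standard errors 0.46 and 0.47). The groups differed more in spread. The SDs of the 6 mitotic genes ran from 0.62 to 1.55 among control arrays, from 0.94 to 1.40 among rIPCe arrays and from 0.37 to 0.59 among rIPCl arrays. This difference in spread was not tested, and for the control group it rested in part on control 1. Without control 1, the control SDs of BIRC5, AURKA and CDC20 were 0.16, 0.24 and 0.47, below those of rIPCl (0.57, 0.47 and 0.59). Those of CCNB1, CDK1 and TOP2A were 0.90, 1.05 and 0.90, still above those of rIPCl (0.45, 0.49 and 0.37).

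In limma, with Benjamini-Hochberg adjustment over 43603 probes, 2 of the 8 genes (CCNB1 and BIRC5) had an adjusted p under 0.05 in rIPCl, where 6.27% of all probes did. The methods' t-test called 0 of the 8 there, and with slide as a fixed or as a random block limma called 0 of the 8. All 6 mitotic genes were at least 2-fold higher in rIPCl with an unadjusted p under 0.05, the criteria the study used, against 3.67% of all probes. Over the 3020 matched genes, each by its brightest probe, 6.89% were higher by these criteria in rIPCl and 1.56% in rIPCe. Of these matched genes, 9.5% had an adjusted p under 0.05 in rIPCl. In rIPCe, 4 of the 8 (CCNB1, BIRC5, CDK1 and TOP2A) were higher by these criteria against 1.27% of all probes, and 0 passed the adjustment in limma (0.00229% of all probes) or in the methods' t-test, with 4 at an unadjusted p under 0.05 (14.1% of all probes). In rIPCl versus rIPCe, limma and the methods' t-test called 0 of the 8, and 0 had an unadjusted p under 0.05 (3.85% of all probes). Nothing is read from these counts, because the genes were chosen with these comparisons known. Both comparisons use the same 5 control arrays.

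The high and low arrays were nearly the same for every mitotic gene. Control 1 was the highest control array for all 6, and it reached at least the lowest rIPCl array for 5 of them. Control 5 came second for 5. In rIPCe, array 2 was highest and array 3 second for all 6, and both lay at or above the lowest rIPCl array for all 6, while rIPCe 1, 4 and 5 reached it for 0 of 6. In rIPCl, array 4 was highest for all 6. Without control 1, the rIPCl arrays were above all remaining control arrays for 6 of 6 mitotic genes in place of 1, and the differences were 1.55 to 3.46 in rIPCl and 1.02 to 2.85 in rIPCe. Because control 1 was the highest control array for all 6, leaving it out could only widen these gaps. The share of all probes that separate without control 1 was not computed, so nothing is read from this number.

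**Figure D3:**
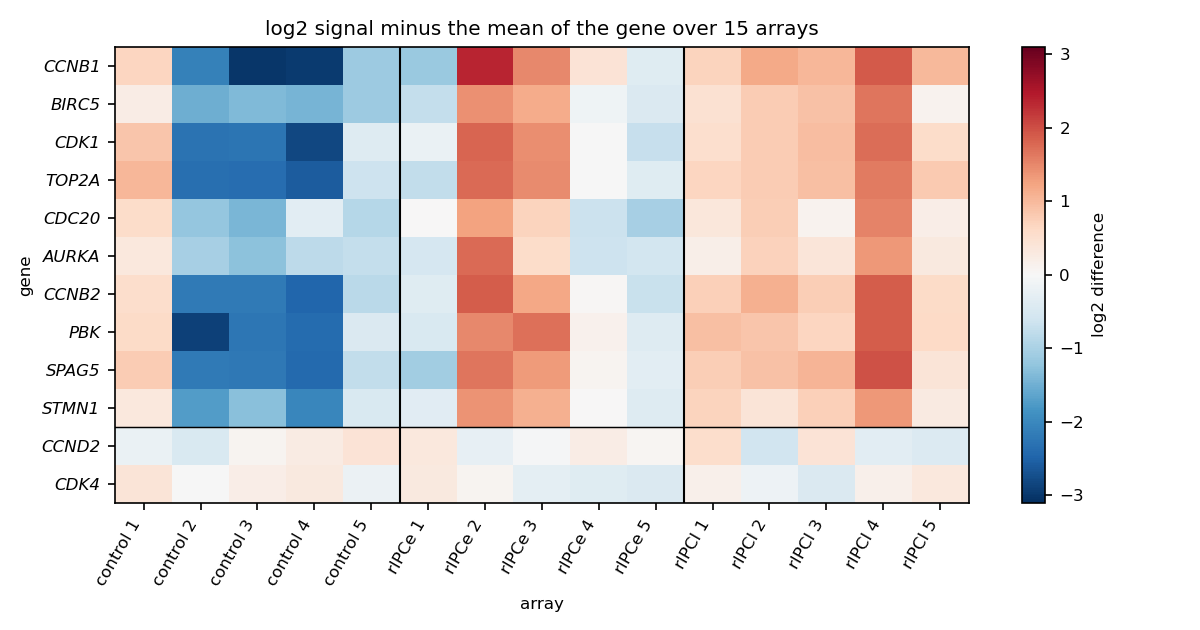
Each cell is the log2 signal of a gene on an array minus the mean of that gene over the 15 arrays, with red higher and blue lower. Arrays are in label order, vertical lines part the groups, and CCND2 and CDK4 stand under the horizontal line. Control arrays 2 to 4 are blue, and control 1, rIPCe 2, rIPCe 3 and all rIPCl arrays red, for CCNB1, CDK1 and TOP2A, while CCND2 and CDK4 are pale throughout.

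Over all 15 arrays, the Pearson correlations of the 15 pairs among the 6 mitotic genes ranged from 0.82 to 0.99, which includes the group differences and is a description. With each group's mean taken off, differences among the arrays of one group remained, those between slides included. These pairs then had r from 0.72 to 0.98, with a median of 0.88. In a permutation test within groups (two-sided, 100000 draws, Benjamini-Hochberg over 28 pairs of the 8 genes), all 15 pairs had an adjusted p under 0.05, the highest being 0.0203. The tightest were CDK1 with TOP2A (r = 0.98, Spearman's rho = 0.96, permutation adjusted p = 0.000887) and CCNB1 with TOP2A (r = 0.97, rho = 0.95, permutation adjusted p = 0.00028). CCNB1 and BIRC5 had r = 0.90 and rho = 0.87 (permutation adjusted p = 0.00049). CDC20 stood closest to AURKA (r = 0.91, rho = 0.85, permutation adjusted p = 0.00049) and farthest from CCNB1 (r = 0.72, rho = 0.63, permutation adjusted p = 0.0203). By rank, 11 of the 15 pairs kept an adjusted p under 0.05, and the 4 that did not were those of CDC20 with CCNB1, BIRC5, CDK1 and TOP2A. Without the 2 arrays farthest from the median of the pair's first gene, in the order named at the start, r ranged from 0.46 (CCNB1 with CDC20) to 0.96. The arrays left out could therefore differ from pair to pair.

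None of the 13 pairs that contain CCND2 or CDK4 had an adjusted p under 0.05, with within-group r from -0.44 (AURKA with CCND2, rho = -0.39, permutation adjusted p = 0.0998) to 0.48 (CDC20 with CDK4, rho = 0.53, permutation adjusted p = 0.162). CCND2 with CDK4, the cyclin and its kinase, had r = -0.18 and rho = -0.20 (permutation adjusted p = 0.646).

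**Figure D4:**
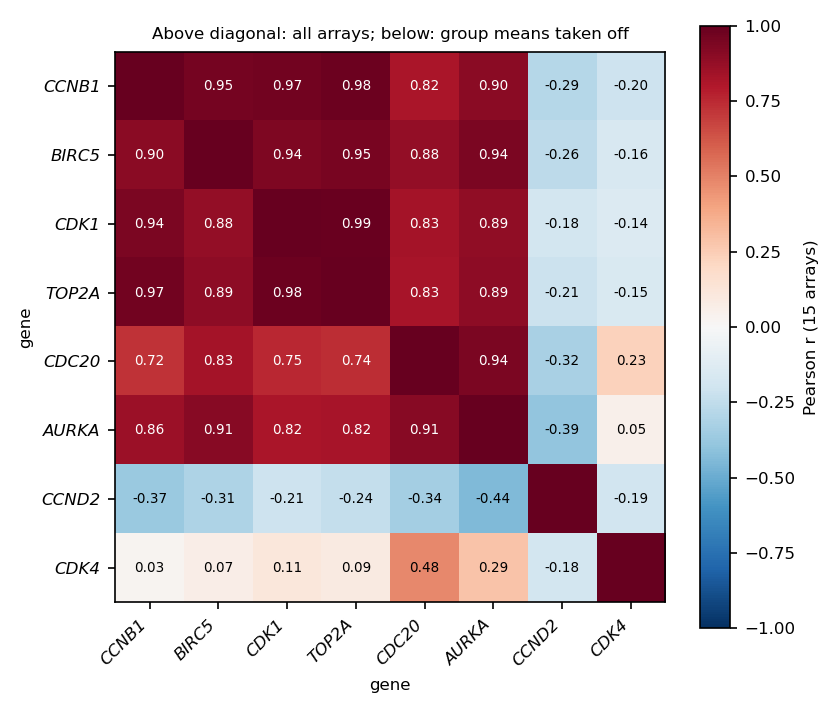
Pearson r for each pair of the 8 genes over 15 arrays is given above the diagonal for the levels as they are and below it after each group's mean was taken off. The block of 6 mitotic genes is red on both sides, from 0.72 upward, and pairs with CCND2 or CDK4 lie, after that step, between -0.44 and 0.48.

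Among 2568 other genes detected above background throughout 1 group or more, the 8 with the highest r to CCNB1 over the 15 arrays included SPAG5 (0.98), CCNB2 (0.98), STMN1 (0.96), PBK (0.96), TMEM237 (0.95), CCR2 (0.94) and RPS16 (0.92). The first 4 are genes of the mitotic apparatus or mitotic kinases, and after removal of group means their r was 0.97, 0.96, 0.92 and 0.90. TMEM237 belongs to the primary cilium, CCR2 is a chemokine receptor of monocytes and RPS16 a ribosomal protein, with r of 0.91, 0.88 and 0.87 after removal of group means. All points share the 15 arrays and their normalization.

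Other genes of the cycle were taken from 4 lists, which were compiled with earlier results of these arrays known and hold none of the 10 genes. Of 69 genes of mitosis, 10 could be measured, and all 10 had a higher mean in rIPCl than in the control group, as 45.9% of all probes did. After adjustment over all probes, limma called 4 of them higher (CCNB2, PBK, SPAG5 and STMN1) and 0 lower in rIPCl, where 2.69% of all probes were called higher, and 6 did not pass. Of the 3020 matched genes, 4.47% were called higher. With slide as a random block, whose correlation is estimated, 0 of the 10 and 0 of all 43603 probes were called, and the limma adjusted p of these 4 genes was 0.239 to 0.263. The study had picked CCNB2, SPAG5 and STMN1 on these same samples, which is not independent evidence of their direction. The median log2 fold change of the list was 1.13, against -0.03 over all probes.

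CCNB2, the second B-type cyclin, read 7.38, 4.66, 4.65, 4.39 and 6.00 on control arrays 1 to 5, 6.47, 8.73, 8.05, 6.88 and 6.16 in rIPCe, and 7.58, 7.94, 7.61, 8.73 and 7.44 in rIPCl. All rIPCl arrays lay above all control arrays, as for 2 of the 10 measured mitosis genes and 2.71% of all probes. CCNB2 rose by 2.44 (rIPCl minus control, limma adjusted p = 0.0353, standard error 0.60). PBK, a kinase active in mitosis, read 11.20, 7.70, 8.36, 8.21 and 10.15 in the control group, 10.14, 12.09, 12.30, 10.75 and 10.20 in rIPCe, and 11.54, 11.47, 11.26, 12.47 and 11.21 in rIPCl. PBK rose by 2.47 (rIPCl minus control, limma adjusted p = 0.0406, standard error 0.64). The remaining 3 probes of PBK gave 1.62 to 2.10. As with CCNB1, control 1 was the highest control array for both genes and rIPCl 4 the highest rIPCl array.

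SPAG5, a spindle protein, rose by 2.37 (limma adjusted p = 0.0448, standard error 0.64), and 3 of 5 rIPCl arrays exceeded all control arrays. STMN1, which destabilises microtubules, rose by 1.73 (limma adjusted p = 0.0431, standard error 0.46), and 4 of 5 exceeded them. The other probes gave 1.63 to 1.71 for SPAG5 and 1.53 to 1.57 for STMN1. AURKB, the kinase partner of BIRC5 in the passenger complex and named here after its values were seen, differed by 0.99 and missed the threshold (limma adjusted p = 0.0513).

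In rIPCe, limma and the methods' t-test called 0 of the 10 mitosis genes. Of these 10 genes, 5 had an unadjusted p under 0.05 (14.1% of all probes). The median log2 fold change was 0.81 against -0.01 over all probes. The called genes differed by 1.84 (CCNB2), 1.97 (PBK), 1.69 (SPAG5) and 1.40 (STMN1) from the control group in rIPCe, with limma adjusted p values of 0.218, 0.218, 0.271 and 0.222. Of the 30 measured genes on the 4 lists, limma called 0 in rIPCl versus rIPCe, where 0% of all probes were called, and 0 had an unadjusted p under 0.05.

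The replication list had 5 measured genes of 51, and limma and the methods' t-test called 0 of them in rIPCl, with 1 at an unadjusted p under 0.05 (26.8% of all probes). The log2 fold changes in rIPCl were -0.22 for POLD2 and 0.28 for POLD3, both subunits of DNA polymerase delta, and 0.10 for PRIM1 and 0.28 for PRIM2, the primase subunits. The median was 0.10, against -0.03 over all probes, and PCNA, the clamp of this machinery, was not among the genes measured.

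Of the 33 genes on the list for G1 and the start of S phase, 3 were measured. Limma called 0 in rIPCl, the methods' t-test 1, and 2 had an unadjusted p under 0.05 (26.8% of all probes). CCND3, another D-type cyclin, differed by 0.38, MYC by 0.79 and LIN52, a subunit of the complex that controls cell cycle promoters, by -0.38, with all 5 rIPCl arrays of LIN52 below all control arrays (limma adjusted p = 0.0527), a separation found in 6.75% of all probes.

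Of 30 CDK inhibitors and checkpoint genes, 12 were measured, 9 of them with a higher mean in rIPCl (45.9% of all probes). Limma called 2 of the 12 higher (2.69% of all probes and 4.47% of the 3020 matched genes) and 0 lower. With slide as a random block 0 were called, with a limma adjusted p of 0.232 for CCNG1. The median log2 fold change was 0.35, against -0.03 over all probes. CCNG1, which encodes cyclin G1, was among the called genes and read 14.02, 13.69, 13.93, 13.57 and 13.82 in the control group, 13.70, 14.33, 14.51, 14.40 and 14.61 in rIPCe, and 14.44, 14.50, 14.49, 14.89 and 14.58 in rIPCl. All rIPCl arrays lay above all control arrays, a separation found in 2.71% of all probes, and 4 of 5 rIPCe arrays did. CCNG1 rose by 0.78 (limma adjusted p = 0.0247, standard error 0.16). A second probe of CCNG1 gave only 0.26. In rIPCe, limma and the methods' t-test called 0 of the 12, with 1 at an unadjusted p under 0.05 (14.1% of all probes). In rIPCl, 5 of the 12 had an unadjusted p under 0.05 (26.8% of all probes). The log2 fold changes in rIPCl ran from -0.26 (GADD45A, a stress gene) to 0.91 (CDKN3), and neither of these genes passed the adjustment. CDKN1B, the CDK inhibitor p27, did not pass either and differed by 0.18.

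These calls depended on single arrays and on the slide. The number of called mitosis genes was 5 without control 1, control 5 or rIPCl 1, 3 without rIPCe 5, 1 without rIPCe 4, and 0 without any one of control 2, 3 or 4 or rIPCl 2, 3, 4 or 5, while it was 4 without rIPCe 1, 2 or 3. It was 0 with slide as a fixed or as a random block. With slide as a fixed block, the 6 mitotic genes named at the start were 2.14 to 2.76 above the control group in rIPCl, with standard errors of 1.12 to 2.10, against 1.25 to 2.87 without the block. CDC20 moved most, from 1.25 to 2.76, AURKA moved from 1.29 to 2.14, and the median of the mitosis list moved from 1.13 to 2.36. The blocked difference rests on control 5 and rIPCl 1, each the lone array of its group on its slide. Within slide 2, which held control 5 and rIPCe arrays 1 to 3, they were 1.36 to 2.02 higher in rIPCe, and within slide 3, which held rIPCe 4 and 5 and rIPCl 1, they were 0.67 to 1.20 higher in rIPCl. CCNG1 differed by 0.30 in rIPCl with slide as a fixed block.

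Some markers of other cells differed between the groups. The mean log2 signal of 7 measured macrophage genes of 9 ranged over 9.98 to 11.23 (control), 10.50 to 11.35 (rIPCe) and 10.73 to 11.87 (rIPCl). Limma called 4 of them higher in rIPCl (C1QA, C1QB, C1QC and MRC1), where 2.69% of all probes were called higher and 0 of all probes with slide as a random block. CD163 and AIF1 were 0.90 and 0.85 higher in rIPCl without passing (limma adjusted p = 0.21 and 0.0601). CD14 went the other way and differed by -0.12 in rIPCl and -0.57 in rIPCe. The methods' t-test called 1 of the 7. For 6 of 10 tubular injury and repair genes the mean log2 signal was 11.16 to 13.28, 11.86 to 13.93 and 13.12 to 13.65. Limma called 2 of these higher in rIPCl (VCAM1 and CLU) and the methods' t-test called 1. Of the 6, 5 had a higher mean in rIPCl than in the control group. KRT8 had a lower mean, by -0.25 in rIPCl and -0.34 in rIPCe. For 8 of 9 T and NK cell genes the mean signal was 6.32 to 7.75, 6.19 to 7.92 and 6.93 to 9.32, with 0 called in limma and in the t-test. Of these 8 genes, 6 had an unadjusted p under 0.05 in rIPCl (26.8% of all probes). For 5 of 11 proximal tubule genes the mean signal was 12.34 to 13.82, 11.97 to 13.24 and 11.76 to 13.19, with 0 called. The medians of the distal nephron list (4 of 8 genes) were 10.56, 10.70 and 10.64 in the control, rIPCe and rIPCl groups, and those of the endothelium list (3 of 6) 11.76, 11.95 and 12.10, with 0 called in either and 0 at an unadjusted p under 0.05. Those of the fibroblast list (3 of 6) were 13.72, 13.90 and 14.49, with 0 called and 2 at an unadjusted p under 0.05 in rIPCl. The T and NK cell list was highest on rIPCe 4 (7.92) and rIPCl 3 (9.32), which were not the highest arrays for the mitotic genes. The macrophage and injury lists were highest on rIPCe 2 (11.35 and 13.93), as the mitotic genes were. In rIPCl, however, they were highest on rIPCl 3 (11.87) and rIPCl 1 (13.65). The fibroblast list was highest on rIPCe 3 (14.81) and on rIPCl 4 (14.82), the latter also the highest rIPCl array for the mitotic genes. Control 1, the control array with the highest mitotic genes, was also the highest control array for the macrophage (11.23 against 10.43 for the next), injury (13.28 against 12.44) and T and NK cell lists (7.75 against 6.78) and the lowest for the proximal tubule list (12.34). For the endothelium list control 1 was highest by little (12.28 against 12.27). Another control array was higher for the fibroblast (14.07 against 13.85), B cell (4.66 against 3.78) and distal nephron lists (10.88 against 10.37). The part of these cells in the levels of the cell cycle genes was not tested.

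With group means taken off, CCNB1 had r = 0.67 and rho = 0.68 with the macrophage list (permutation p = 0.0099, adjusted over 8 lists 0.0776), r = 0.61 and rho = 0.44 with the injury list (permutation p = 0.0711, adjusted 0.166) and r = 0.59 and rho = 0.65 with the fibroblast list (permutation p = 0.0194, adjusted 0.0776). None of the 8 lists passed the adjustment. Without the 2 arrays farthest from the median of CCNB1, r fell to 0.26 for the macrophage list and 0.16 for the injury list and was 0.59 for the fibroblast list.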

How the data were processed

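The authors hybridised 1 array per pig. They deposited scanner files, made with Agilent Feature Extraction 11.0.1.1 according to the submitters' processing notes, and a table of probe values. Per the file headers, the deposited values are intensities on a linear scale, corrected for background within each array and not normalized between arrays; the table equalled the mean processed signal of all 43603 probes within a relative tolerance of 1e-04. Control spots and between 1 and 70 outlier spots per array were left out. Processed signals were put on the log2 scale and quantile normalized, after which replicate spots were averaged. Symbols came from RefSeq accessions (6686 probes); probes listed by other identifiers have no symbol here.

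With limma 3.58.1 in R 4.3.3, each probe was fitted with a mean for each group. Fold changes are differences of mean log2 signals, and a call is an adjusted p under 0.05. Correlations were tested in Python 3.11.15 (numpy 2.4.6). The number of arrays limits the precision. The genes and lists were chosen with earlier results of these data known, and the genes named from the lists were those called in rIPCl, those the study names, and the 8 nearest CCNB1. A rule for genes nearest CDKN1A could not be used. Values of 3 genes that these rules or lists include are not reported here. The other genes named from the replication, G1 and inhibitor lists were chosen after their values were seen. The fits were tested on simulated data. Other settings are given in the closing section.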

Additional observations from a re-analysis of the deposited data

Results flagged for a closer look

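A single array lay far from the others of its group, by Dixon's test at the 95% level, in 3 of 39 groups examined (13 genes in 3 groups of 5 arrays each), where chance gives about 1 in 20. BIRC5 was at 11.74 on control 1, and the next control array was at 10.37. TOP2A was at 10.22 on rIPCl 4, with the next rIPCl array at 9.53. PBK was at 12.47 on rIPCl 4, with the next at 11.54.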

How the results depend on the processing

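Of 30 listed genes in rIPCl versus control, limma called 4 of mitosis, 2 of CDK inhibitors and checkpoints, 0 of G1 and the start of S phase and 0 of replication. The replication number was 0, and that in rIPCl versus rIPCe was 0, under every setting. With the replicate number as a block, the mitosis number was 0 and the inhibitor number 0; the labels give no pairing, and same-numbered arrays had correlations of their deviations from -0.27 to 0.07, so they share only a number. Slide as a fixed or random block also gave 0 and 0. The mitosis number was 1 with only the 10 arrays compared and 0 with the methods' t-test. The inhibitor number was 1 with only the 10 arrays compared, with probes averaged by gene and with the t-test, and the G1 number was 1 with these 3 and with 75th percentile scaling. Leaving out 1 array at a time, the mitosis number was 0 to 5, the inhibitor number 0 to 2, the G1 number 0 to 2, and the number on all lists in rIPCe 0 to 1. Calls over all probes in rIPCl moved in the same way, from 2736 to between 49 and 4913 with an array left out, 7728 with 75th percentile scaling, 987 with the replicate block, 479 with slide as a fixed block and 0 as a random block. The number of correlated pairs, 15 of the 28 pairs of all 8 genes, was 12 to 16 with an array left out and 15 with 75th percentile scaling, with slide as a block and with normexp (offset 50) on the median signal, a setting chosen after seeing the data because normexp on the mean signal, set beforehand, could not be run without that column. Fold changes of the 6 mitotic genes kept their sign under every setting. All 8 genes were well above background on each of the 15 arrays, but the size of the differences depended on the background setting. With normexp, the 6 mitotic genes were 0.62 (AURKA) to 2.37 (CCNB1) above the control group in rIPCl. AURKA moved from 1.29 to 0.62, CDC20 from 1.25 to 0.96 and TOP2A from 2.34 to 1.70. In rIPCe, AURKA moved from 0.83 to 0.43.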
